A study of Mus musculus with 6 samples.

Results

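The 9 genes described here encode the MHC class II presentation pathway: the classical chains H2-Aa, H2-Ab1 and H2-Eb1, the invariant chain Cd74, the peptide editors H2-DMa and H2-DMb1, the modulator chains H2-Oa and H2-Ob, and the transactivator Ciita. They were chosen by name as members of the pathway, with earlier results of these data known, from 35498 genes to which the deposited transcript estimates could be summed. All 9 were detected in every library and all 9 passed the filter on low counts. In the series, C57BL/6J mice of 8 to 10 weeks had the left anterior descending coronary artery ligated, and ventricular tissue was taken on day 7 to ask how Runx1 in periostin-expressing fibroblasts affects the infarcted heart. Control mice (CTL, 3 libraries) had the genotype Postn CreER+/- with Runx1 WT, and knockout mice (Runx1_FB_KO, 3 libraries) had Postn CreER+/- with Runx1 fl. Every mouse therefore carried a tamoxifen-inducible recombinase under the periostin promoter, had an infarct and ate a tamoxifen diet from surgery to collection. Sex was unevenly placed: the females were CTL replicate 1 with Runx1_FB_KO replicates 2 and 3, and the other 3 libraries were from males. Where 3 values of a group follow each other, they are those of replicates 1, 2 and 3 in that order. RNA came from whole tissue below the ligature, not from sorted cells.

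Class II molecules are pairs of an alpha and a beta chain that carry peptides from ingested proteins to the cell surface, where CD4 T cells read them. New pairs are held by the invariant chain, which fills the groove and guides them to late endosomes. There H2-DM exchanges the last invariant chain fragment for peptide, and H2-O, made mainly by B cells, restrains H2-DM. Dendritic cells, B cells and a share of macrophages express the pathway, and in infarcted heart it is known chiefly from recruited and resident myeloid cells. CIITA does not bind DNA itself: it docks on factors that sit on the X and Y boxes upstream of the class II genes, which is why these genes are often expressed together.

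Of the 9 genes, 7 lie in the class II region of chromosome 17 (GRCm38), from the start of H2-Oa at 34092340 to the end of H2-Eb1 at 34316674. H2-Aa is on the minus strand and the other 6 are on the plus strand. Ciita is on the plus strand of chromosome 16, from 10480059 to 10528418, and Cd74 lies on another chromosome. The region also holds genes of the same families that were not among the 9, namely H2-DMb2, H2-Eb2 and H2-Ea-ps, the E alpha gene that the annotation classes as a polymorphic pseudogene.

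The promoter layout is shown as background on the pathway. All 9 genes had lower mean levels in the knockout libraries, and a part of the promoters in this was not tested. RefSeq promoters (GRCm38.p6, 250 bases before to 50 bases after an annotated start) were at hand for H2-Aa, H2-Eb1, H2-DMa, H2-DMb1, H2-Oa and H2-Ob among the 9 genes, and for H2-Eb2 and H2-DMb2 beside them. They were searched on both strands for GNAAC, a core of the X box, followed after 20 to 35 bases by GATTGG, the Y box (a reversed CCAAT box), a pattern set after the sequences had been read. The 2 motifs do not overlap in any match. The stretches below run 5′ to 3′ on the gene's strand, with GNAAC and GATTGG in capitals and 8 bases on either side.
H2-Aa, chr17:34287859-34287912, minus strand: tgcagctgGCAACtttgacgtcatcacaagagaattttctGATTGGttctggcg
H2-Eb1, chr17:34305768-34305820, plus strand: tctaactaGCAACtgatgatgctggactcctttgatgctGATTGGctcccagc
H2-DMb1, chr17:34153089-34153142, plus strand: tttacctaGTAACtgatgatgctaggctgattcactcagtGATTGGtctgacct
H2-Oa, chr17:34092295-34092348, plus strand: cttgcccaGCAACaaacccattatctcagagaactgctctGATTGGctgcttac
H2-Ob, chr17:34238810-34238860, plus strand: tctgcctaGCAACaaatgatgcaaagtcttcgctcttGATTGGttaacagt
H2-Eb2, chr17:34325535-34325587, plus strand: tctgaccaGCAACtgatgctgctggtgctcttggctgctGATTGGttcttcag

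The gap between both motifs was 24 bases in H2-Ob, 26 in H2-Eb1 and H2-Eb2, and 27 in H2-Aa, H2-DMb1 and H2-Oa. In the 5 matching promoters of the 9 genes, the GATTGG began 44 to 62 bases before the RefSeq start, and in H2-Eb2 it began 101 bases before. Starts differ in the GENCODE annotation used for counting. There H2-DMb1-201 starts at 34153072 with a first exon of 382 bases, so the H2-DMb1 stretch lies inside that exon. H2-Oa-201 starts at 34092340, within the H2-Oa stretch. Of 32817 promoters of the same length in the table, 0.92% held the spaced pair on either strand, 84.9% held GNAAC and 16.1% held GATTGG. H2-DMb2 had GATTGG but not the spaced pair in its window. Neither of the 2 H2-DMa windows held the pair, and most H2-DMa reads were not given to the transcripts that begin at them: H2-DMa-205, which starts at 34135628, downstream of both, received 75.75%, 92.16% and 92.53% of the gene's reads across CTL against 90.8%, 97.61% and 85.73% across the knockouts. A match describes letters and is not a measurement of binding.

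**Figure D1:**
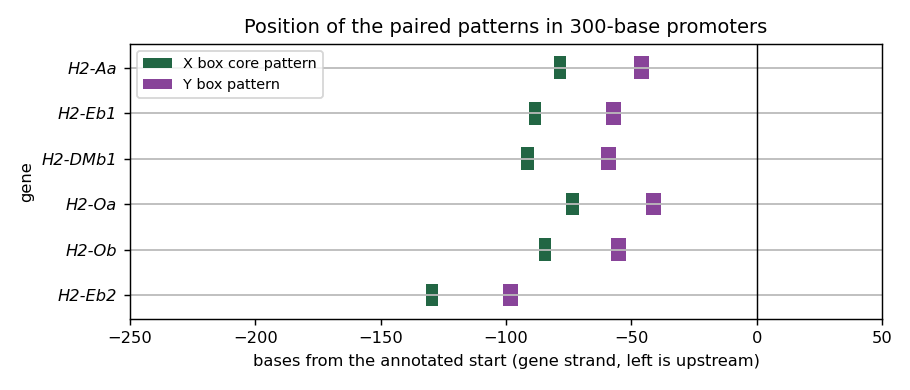
Position of the X box core and Y box patterns in the promoters of 5 of the class II genes and of H2-Eb2, in bases from the RefSeq start on the gene's strand (x axis) for each gene (y axis). The Y box pattern lies 44 to 62 bases before the start in the upper 5 genes and 101 bases before it in H2-Eb2.

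Depth was similar in the 6 libraries, with 16598561 to 19987279 estimated reads each. Runx1, the targeted gene, was at 96.36, 86.92 and 85.53 CPM (read counts scaled by TMM to a common library size) across CTL against 17.48, 10.85 and 67.44 CPM across the knockouts (log2 fold change -1.48, SE 0.63, edgeR adjusted p = 0.154). Runx1_FB_KO replicate 3 was thus the knockout library nearest to CTL, and results are also given without it. Leaving out the knockout library nearest to CTL favours larger differences, so those results are no independent support. Mitochondrially encoded genes took 5.36% to 7.11% of reads in CTL and 10.37% to 24.49% in the knockout, and the summed CPM of 8 cardiomyocyte genes ran from 10310 to 12870 in CTL and from 24970 to 90900 in the knockout. No gene of the 14237 tested passed an edgeR adjusted p of 0.05 with all 6 libraries. An unadjusted p under 0.05 was given to 4619, and DESeq2 called 2824.

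All 9 class II genes had lower mean levels in the knockout, and none passed the edgeR threshold, as was so for every gene tested (0% of all genes called lower). The median log2 fold change of the 9 was -1.04 (range -2.02 to -0.83), beside a median of -0.06 over all genes tested, where 54% of genes had a negative value. For 5 of the 9 the highest knockout value was below the lowest CTL value, against 18.8% of all genes. An unadjusted edgeR p under 0.05 was reached by 7 of the 9, against 13.1% of all genes in that direction. In marker lists described below it was reached by 7 of 8 pan-leukocyte, 6 of 12 macrophage and 1 of 8 fibroblast genes. The median log2 fold changes of these lists were -1.12, -0.94 and -0.81, so such a difference was not particular to class II. DESeq2 called 4 of the 9 lower (H2-Ab1, H2-DMa, H2-DMb1 and Ciita), against 5.17% of the genes it adjusted. Without Runx1_FB_KO replicate 3 edgeR called all 9 lower, against 22.5% of all genes. In that fit it also called lower all 8 pan-leukocyte, 11 of 12 macrophage and 7 of 8 fibroblast genes. With any other library left out it called 0 genes. In whole tissue, fewer class II cells and less class II RNA per cell cannot be told apart.

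The invariant chain was the most abundant of the 9 and had the smallest difference. Cd74 was at 230, 430.3 and 339 CPM across CTL against 150.2, 139.1 and 273.9 CPM across the knockouts. The groups overlapped, because Runx1_FB_KO replicate 3 lay above CTL replicate 1, the lowest control. Among females Cd74 was at 230 CPM in the single CTL library against 139.1 and 273.9 CPM, and among males at 430.3 and 339 CPM against 150.2 CPM in the single knockout library. Group means were 333.1 ± 100.3 and 187.7 ± 74.8 CPM (SD, n = 3), a log2 fold change of -0.83 (SE 0.35, edgeR adjusted p = 0.156). When Runx1_FB_KO replicate 3 was left out, Cd74 had -1.16 (SE 0.26, edgeR adjusted p = 0.00907). Leaving out each other library in turn gave Cd74 values from -1.03 to -0.6, with edgeR adjusted p of 0.23 to 0.401.

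The classical chains followed Cd74 library by library. H2-Aa, the alpha chain of the A molecule, was at 90.1, 163.5 and 132.6 CPM across CTL against 59.3, 50.9 and 100.4 CPM across the knockouts. Again CTL replicate 1 was the lowest control and lay below Runx1_FB_KO replicate 3, so the groups overlapped (log2 fold change -0.87, SE 0.33, edgeR adjusted p = 0.128). Its partner H2-Ab1, the A beta chain, was at 95.8, 142.5 and 119.9 CPM across CTL against 44.6, 37.9 and 93.7 CPM across the knockouts. For this gene the groups were apart, but only by the step from 93.7 CPM in Runx1_FB_KO replicate 3 to 95.8 CPM in CTL replicate 1. H2-Ab1 had a log2 fold change of -1.02 (SE 0.36, edgeR adjusted p = 0.118). This was -1.49 (SE 0.20, edgeR adjusted p = 0.00089) without Runx1_FB_KO replicate 3. Leaving out each other library in turn gave H2-Ab1 values from -1.16 to -0.78, with edgeR adjusted p of 0.23 to 0.347. DESeq2 gave H2-Ab1 an adjusted p of 0.0489.

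H2-Eb1 encodes the beta chain of the E molecule, whose alpha chain C57BL/6 mice do not express. Its levels were 86.5, 156.1 and 131.6 CPM across CTL against 57.2, 47.7 and 99.8 CPM across the knockouts, which overlapped in the same way as H2-Aa (log2 fold change -0.87, SE 0.34, edgeR adjusted p = 0.136). H2-Ea-ps, the E alpha gene, had 0 reads in each of the 6 libraries, where 3 reads would be 0.133 to 0.234 CPM, a limit that covers counting error only. H2-Eb1 RNA was thus measured at a level near that of H2-Ab1 while reads of its partner chain were not detected. Of the H2-Eb1 reads, 54.24% to 60.62% in each library were given to H2-Eb1-205, a transcript annotated for nonsense-mediated decay, and 16.34% to 24.94% to the protein-coding H2-Eb1-203. Salmon divides reads among transcripts that share sequence, so these are shares of an allocation.

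Both H2-DM chains were apart between the groups. H2-DMa was at 14.1, 17.0 and 16.5 CPM across CTL against 5.70, 6.64 and 10.7 CPM across the knockouts. Every knockout library lay below every control, and the controls stood close together, at 15.9 ± 1.58 CPM (SD, n = 3). H2-DMa had the smallest edgeR adjusted p of the 9 genes, 0.0771, at a log2 fold change of -1.04 (SE 0.28). DESeq2 gave it an adjusted p of 0.0122. H2-DMb1 was at 15.7, 16.9 and 17.7 CPM across CTL against 5.50, 4.92 and 12.1 CPM across the knockouts. Runx1_FB_KO replicates 1 and 2 were the lowest and replicate 3 stood between them and CTL (log2 fold change -1.15, SE 0.36, edgeR adjusted p = 0.0955, DESeq2 adjusted p = 0.0265).

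H2-DMb1 has a neighbouring paralog, H2-DMb2, with which reads can be shared, so the split between both genes is uncertain. H2-DMb2 had 40, 87 and 166 estimated reads across CTL against 4, 11 and 50 across the knockouts, and was thus lowest in Runx1_FB_KO replicates 1 and 2 as H2-DMb1 was. Summing the reads of both genes gave a log2 fold change of -1.29 (SE 0.40, edgeR adjusted p = 0.0971), an alternative chosen after the data were seen.

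**Figure D2:**
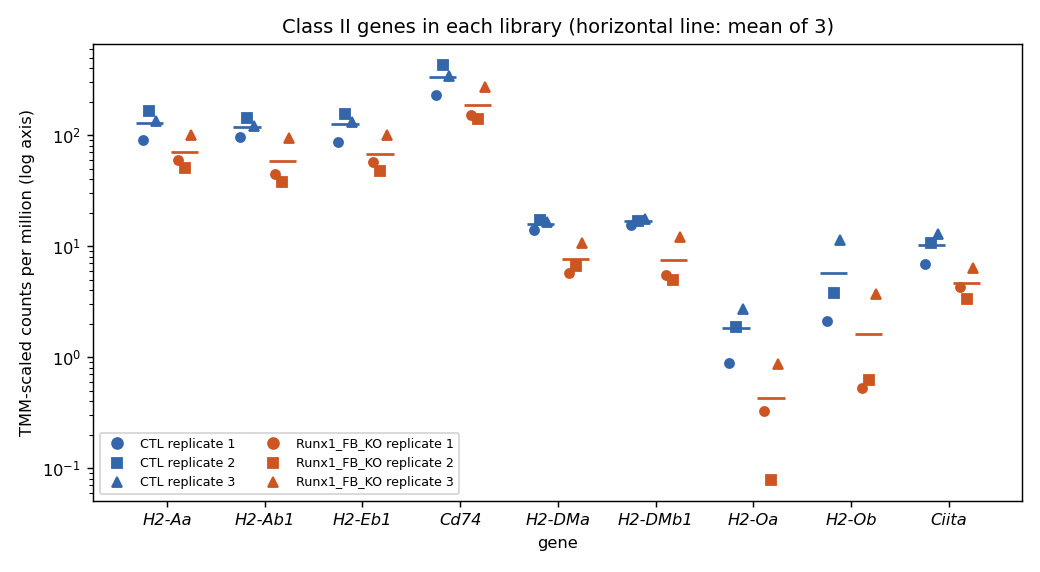
TMM-scaled CPM (y axis, log scale) of the 9 class II genes (x axis) in each of the 3 CTL and 3 Runx1_FB_KO libraries, with a horizontal line at each group mean. Runx1_FB_KO replicates 1 and 2 lie below all CTL libraries for every gene, while Runx1_FB_KO replicate 3 lies above CTL replicate 1 for Cd74 (273.9 against 230 CPM).

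The H2-O genes had the lowest read counts and the largest differences, with the widest errors. H2-Oa, the alpha chain, had 20, 42 and 54 estimated reads across CTL against 5, 1 and 17 across the knockouts. On the CPM scale the groups were apart by a narrow step, from 0.868 in Runx1_FB_KO replicate 3 to 0.889 in CTL replicate 1 (log2 fold change -2.02, SE 0.80, edgeR adjusted p = 0.139). H2-Ob, the beta chain, had 48, 84 and 227 estimated reads across CTL against 8, 8 and 72 across the knockouts. Its 3.68 CPM in Runx1_FB_KO replicate 3 lay above the 2.13 CPM of CTL replicate 1, and its 11.3 CPM in CTL replicate 3 stood well above the other controls. H2-Ob had a log2 fold change of -1.79 (SE 0.92, edgeR adjusted p = 0.209), -0.85 (SE 0.93, edgeR adjusted p = 0.589) without CTL replicate 3 and -3.27 (SE 0.84, edgeR adjusted p = 0.0156) without Runx1_FB_KO replicate 3. For H2-Oa these were -1.64 (SE 0.95) and -3.04 (SE 0.87).

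B cell genes were summed beside H2-Ob. The summed level of 10 B cell markers was 36.9, 43.0 and 104.7 CPM across CTL against 10.7, 9.92 and 37.1 CPM across the knockouts, and no marker was at 0 in every library. Cd79a, a subunit of the B cell receptor, had 16, 92 and 258 reads across CTL against 5, 7 and 45 across the knockouts. CTL replicate 3 was thus highest both for the B cell sum and for H2-Ob, but not for every marker: Blnk, a signalling adaptor of B cells, was highest in CTL replicate 1, at 22.1 CPM. All 7 tested B cell markers had negative log2 fold changes with 0 past the edgeR threshold, and the part of B cells in the H2-O values was not tested. H2-Eb2, a further class II beta gene, had 7, 10 and 35 reads across CTL against 0, 0 and 6 across the knockouts and did not pass the filter.

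Ciita, the transactivator, was lower in every knockout library. It was at 6.85, 10.8 and 12.9 CPM across CTL against 4.26, 3.36 and 6.38 CPM across the knockouts, with CTL replicate 1 the lowest control and Runx1_FB_KO replicate 3 just below it. Group means were 10.2 ± 3.08 and 4.67 ± 1.55 CPM (SD, n = 3), a log2 fold change of -1.12 (SE 0.35, edgeR adjusted p = 0.0972, DESeq2 adjusted p = 0.0317). Ciita is known to start at separate promoters in dendritic cells and macrophages, in B cells, and under interferon gamma. The annotated transcripts begin near 3 places, from 10480059 to 10480164, from 10488178 to 10488279 and from 10489746 to 10489783. Ciita-201, of the middle place, received 68.94%, 94.98% and 89.71% of the reads across CTL against 94.08%, 92.54% and 72.71% across the knockouts. It is also the transcript whose annotated end, at 10528418, lies farthest downstream, so reads from that end can be given to it alone and its share does not measure promoter use. Ciita-203, of the downstream place, received 19.67% of the reads in CTL replicate 1, 1.9% and 1.92% in CTL replicates 2 and 3, and 0 reads in each knockout library, a gap that rests on 30.29 reads in CTL replicate 1. Ciita-205, of the upstream place, received 21.77 reads (17.41%) in Runx1_FB_KO replicate 3 and 0 in the other 5 libraries, and the low Ciita-201 shares of both CTL replicate 1 and Runx1_FB_KO replicate 3 stood beside these transcripts.

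Cd74 is spliced into a shorter form and a longer form with an added exon, whose protein carries a thyroglobulin domain that binds cathepsin L. Of the 2 main annotated transcripts, Cd74-202 has 9 exons and Cd74-201 has 8. Cd74-202 received 24.0%, 21.2% and 20.11% of Cd74 reads across CTL against 27.32%, 23.1% and 27.48% across the knockouts. The ranges overlapped, through Runx1_FB_KO replicate 2 and CTL replicate 1, and the shares carry no test.

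**Figure D3:**
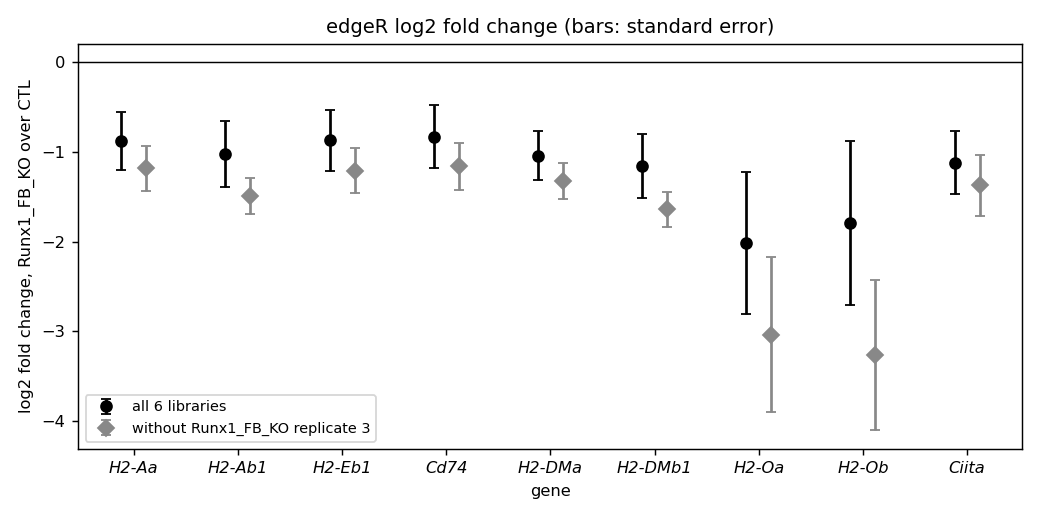
Log2 fold change of Runx1_FB_KO over CTL with its standard error (y axis) for the 9 class II genes (x axis). Values are from edgeR with all 6 libraries (black) and without Runx1_FB_KO replicate 3, the knockout library nearest to CTL (grey). All values are negative, from -2.02 to -0.83 with all libraries, and the H2-O genes have the widest bars.

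Levels were compared between genes per length, on the deposited TPM scale, which counts transcripts by length. In CTL the order was Cd74 at 533.6 ± 160.6 TPM, H2-Eb1 at 255.5 ± 68.2, H2-Aa at 232.4 ± 66.0, H2-Ab1 at 215.7 ± 41.7, H2-DMa at 30.8 ± 0.87, H2-DMb1 at 24.3 ± 3.03, H2-Ob at 6.30 ± 5.53, H2-Oa at 3.45 ± 1.71 and Ciita at 3.17 ± 0.85 TPM (SD, n = 3). Cd74 was first, the classical chains held places 2 to 4 and H2-DMa and H2-DMb1 places 5 and 6 in all 6 libraries. The means of the classical chains lay within their SDs of each other, but within a library H2-Eb1 was above H2-Aa in 6 of 6 and H2-Aa above H2-Ab1 in 5 of 6. H2-Ob, H2-Oa and Ciita did not differ beyond their spread, and their order changed from library to library. In the knockout Cd74 was at 203.5 ± 150.7 TPM and Ciita at 1.02 ± 0.79 TPM (SD, n = 3). On the TPM scale, unlike on the CPM scale, H2-Aa and H2-Eb1 were apart between the groups, with 157 and 178 TPM in Runx1_FB_KO replicate 3 and 161.3 and 179.4 TPM in CTL replicate 1. TPM was not scaled by TMM, whose factors were 0.765 and 0.732 in Runx1_FB_KO replicates 1 and 2 and 1.157 to 1.214 in CTL. Knockout levels therefore lie further below CTL on this scale than on CPM. The share of all genes apart on TPM was not computed.

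Ratios within a library were used to ask how evenly the genes differed. For 11 ratios of TPM the log2 ratio was compared by a two-sided exact permutation test, which with 3 against 3 libraries cannot give a p below 0.1. Ciita to H2-Ab1 was -6.11 ± 0.30 in CTL and -6.12 ± 0.11 in the knockout (exact p = 1, n = 3), and H2-DMa to H2-Ab1 was -2.79 ± 0.25 and -2.78 ± 0.36 (exact p = 0.9, n = 3). For both ratios the difference was far below the spread between libraries. The alpha to beta ratio H2-Aa to H2-Ab1 was 0.939, 1.15 and 1.11 across CTL against 1.32, 1.37 and 1.07 across the knockouts, which overlapped (exact p = 0.3, adjusted p = 0.55). Cd74 to H2-Ab1 was 2.11, 2.68 and 2.52 across CTL against 2.96, 3.32 and 2.58 across the knockouts. This ratio overlapped too, with a log2 difference of 0.28 (exact permutation p = 0.2, adjusted p = 0.55). H2-Eb1 to H2-Ab1 and H2-DMb1 to H2-DMa had log2 differences of 0.21 and -0.22 (exact permutation p = 0.3 and 0.4).

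H2-O was below H2-DM on the TPM scale in every library, by widely varying amounts. H2-Oa to H2-DMa was 0.0579, 0.111 and 0.164 across CTL against 0.0546, 0.0121 and 0.0864 across the knockouts, where the lowest value rests on 1 read of H2-Oa. H2-Ob to H2-DMb1 was 0.128, 0.145 and 0.459 across CTL against 0.0439, 0.0594 and 0.219 across the knockouts. Both overlapped between the groups, with log2 differences of -1.40 and -1.30 and exact permutation p-values of 0.2 and 0.3 (adjusted p = 0.55 each). The H2-Oa difference was -0.57 without Runx1_FB_KO replicate 2, the library with 1 read. The H2-Ob difference was -0.72 without CTL replicate 3, -0.84 without Runx1_FB_KO replicate 1 and -0.80 on estimated counts in place of TPM, and it was -2.0 without Runx1_FB_KO replicate 3.

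Class II was next set beside general leukocyte genes. H2-Ab1 to Ptprc, which encodes the leukocyte surface phosphatase CD45, was 4.58, 7.63 and 5.76 across CTL against 5.10, 5.85 and 5.42 across the knockouts, so every knockout value lay inside the CTL range (exact permutation p = 0.8). H2-Ab1 to Csf1r, the macrophage growth factor receptor, was 1.08, 1.98 and 1.54 across CTL against 1.26, 1.25 and 1.5 across the knockouts, again inside the CTL range (exact permutation p = 0.6). H2-Ab1 to B2m, the class I light chain that most cells express, was 0.118, 0.146 and 0.159 across CTL against 0.0695, 0.0676 and 0.115 across the knockouts. Of the 11 ratios this alone was apart between the groups (exact permutation p = 0.1, the smallest the design allows, adjusted p = 0.55). CTL replicate 1 had the lowest H2-Ab1 per Ptprc and per Csf1r of the controls.

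**Figure D4:**
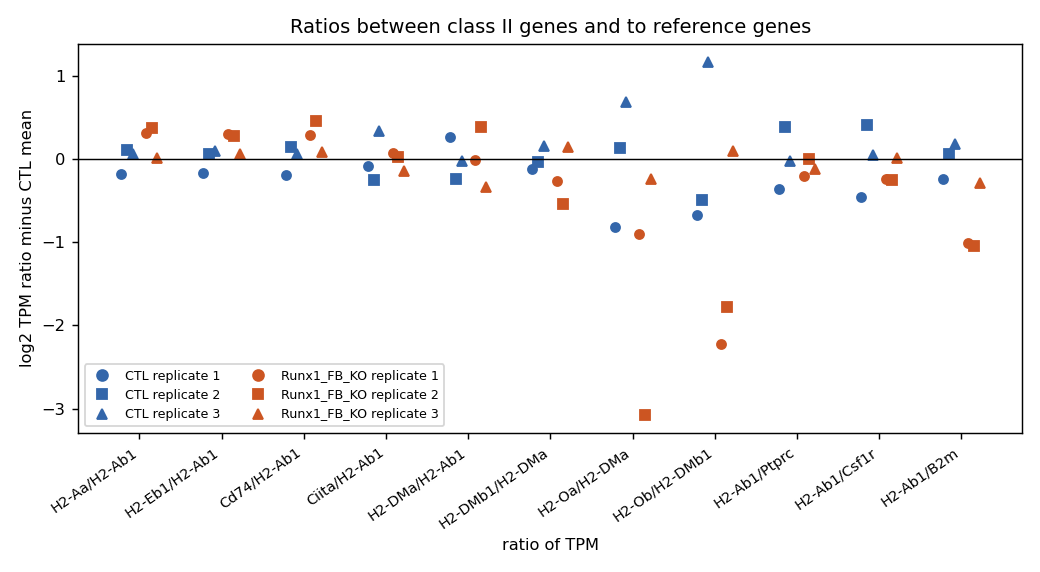
Log2 ratio of TPM minus the CTL mean (y axis) for 11 ratios (x axis) in each library. Runx1_FB_KO values for H2-Ab1/Ptprc lie inside the CTL range, those for H2-Ab1/B2m lie below it, and the H2-Oa and H2-Ob ratios have the widest spread.

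Marker lists of cells that could hold class II RNA were summed in each library. The summed level of 8 pan-leukocyte genes was 717.2 to 1074 CPM in CTL and 274.3, 270.1 and 692.2 CPM across the knockouts. For 12 macrophage genes it was 3448 to 5389 CPM across CTL against 1457, 1387 and 3498 CPM across the knockouts, for 12 dendritic cell genes 184.1 to 244.2 CPM in CTL and 82.6, 76.0 and 167.4 CPM, and for 6 recruited monocyte genes 131.6 to 178.8 CPM in CTL and 44.1, 63.6 and 124.2 CPM. The sum over 6 resident macrophage genes was 88.4 to 125.4 CPM across CTL against 165.6, 135.7 and 63.9 CPM across the knockouts, with Runx1_FB_KO replicates 1 and 2 above CTL. Neither of the dendritic cell and resident macrophage sums stood for its whole list. Single genes of other lists also left their sum: Cx3cr1 of the macrophage list was at 73.1 CPM in Runx1_FB_KO replicate 3, above every CTL library. In that library Chil3 of the recruited monocyte list, at 35.2 CPM, was also above every CTL library. All 12 macrophage and all 6 recruited monocyte genes had negative log2 fold changes, beside 54% of all genes tested. The genes named from these lists were picked after their values were seen. Most of the dendritic cell sum was Fscn1, an actin-bundling protein, at 157.7 ± 34.7 CPM across CTL against 69.6 ± 45.6 CPM (SD, n = 3). Zbtb46, a factor of classical dendritic cells, was higher in every knockout library, at 12.1 ± 2.43 against 18.3 ± 2.14 CPM (SD, n = 3), a log2 fold change of 0.59 (SE 0.21, edgeR adjusted p = 0.118). Clec9a, a receptor of cross-presenting dendritic cells, had 0.03 (SE 0.29) and Siglech, of plasmacytoid dendritic cells, -0.15 (SE 0.51). Most of the list went the other way from Zbtb46: 10 of the 12 genes had negative log2 fold changes (median -0.715), beside 54% of all genes tested. Among them were Flt3 at -2.005 (SE 0.698), Cd24a at -1.694 (SE 0.46) and Batf3 at -1.122 (SE 0.442), with 0 past the edgeR threshold. The resident macrophage list had 3 negative and 3 positive log2 fold changes, with Lyve1 and Cd163 making most of the sum in Runx1_FB_KO replicates 1 and 2. Vsig4, a complement receptor of resident macrophages, was lower in every knockout library, at 9.86 ± 3.46 CPM across CTL against 3.40 ± 0.62 CPM (SD, n = 3), a log2 fold change of -1.54 (SE 0.34, edgeR adjusted p = 0.0682). Class II genes in CTL were highest in replicates 2 or 3, whereas the macrophage and pan-leukocyte sums were highest in CTL replicate 1. Ratios to Ptprc and Csf1r are given above, and the part of these cell types in the class II values was not tested further.

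**Figure D5:**
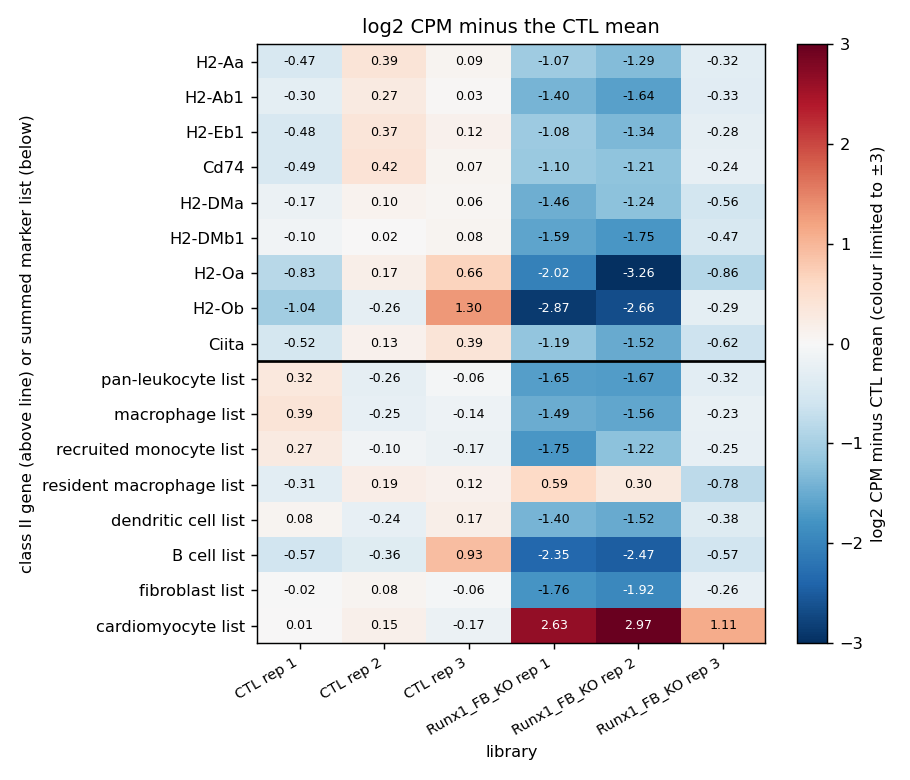
Log2 CPM minus the CTL mean for the 9 class II genes (above the line) and for the summed CPM of 8 marker lists (below) in each library (x axis), with colour limited to ±3. Class II genes, leukocyte lists other than the resident macrophage list, and the fibroblast list are lowest in Runx1_FB_KO replicates 1 and 2, and the cardiomyocyte list is highest there.

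The genes for factors on the class II promoter had mixed directions. Of 7 tested genes for the RFX, NF-Y and CREB proteins, 2 had negative and 5 positive log2 fold changes, with a median of 0.10, and 0 passed the edgeR threshold. Nfyc, a subunit of the Y box factor, had 0.70 (SE 0.25, edgeR adjusted p = 0.117), the X box factor Rfx5 had -0.65 (SE 0.28, edgeR adjusted p = 0.156) and its partner Rfxap had 0.21 (SE 0.17, edgeR adjusted p = 0.397). In the interferon gamma list 8 of 9 genes were tested, 6 negative and 2 positive, with a median of -0.31 and 0 past the threshold. The receptor chains went opposite ways: Ifngr1 was lower, at 152.8 ± 4.09 CPM across CTL against 96.4 ± 14.8 CPM, and Ifngr2 was higher, at 82.8 ± 5.30 against 148.9 ± 37.5 CPM (SD, n = 3, edgeR adjusted p = 0.0735 and 0.0753). Irf8, a factor of myeloid and B cells, had -1.24 (SE 0.34, edgeR adjusted p = 0.0797). Ifng itself had 1 read in CTL replicate 3 and 0 reads in the other 5 libraries.

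Genes that prepare peptides or respond to them were lower more often than higher in each list, with 0 past the edgeR threshold. Over all genes tested, 54% had a negative log2 fold change. Medians and values with an SE are log2 fold changes. Of 8 tested genes for lysosomal processing 7 were negative (median -0.81), among them Lgmn, a protease of antigen processing, at -1.25 (SE 0.41), Ctsh at -0.80 (SE 0.32) and Ctss, which trims the invariant chain, at -1.34 (SE 0.63). Ctss was at 889.8, 461.7 and 517.2 CPM in CTL replicates 1, 2 and 3, so CTL replicate 1 was highest for this gene and lowest for Cd74. Of 6 tested co-stimulation genes 4 were negative and 2 positive (median -0.17), not far from the share over all genes. Those with the smallest p were Cd40 at -0.97 (SE 0.33), Icosl at -0.47 (SE 0.18) and Cd86 at -0.28 (SE 0.26). On the T cell side 8 of 9 tested genes were negative (median -1.52), with Cd3g at -2.03 (SE 0.55) and Lck at -2.23 (SE 0.61), while Cd28 was at 1.13 (SE 0.31). The class I list had 9 of 10 genes negative (median -0.65), among them the peptide transporter Tap1, at 52.1 ± 6.27 CPM in CTL against 26.0 ± 6.27 CPM (SD, n = 3), Psmb9 at -0.65 (SE 0.18) and H2-D1 at -0.78 (SE 0.24), where reads can be shared with near-identical class I genes.

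Genes with the most similar profile were ranked by the root mean square difference of their centred log2 CPM from the mean profile of the 9 genes over 6 libraries. Among 13132 protein-coding genes above a cutoff on mean expression the nearest were Eva1b (0.098), Smim1 (0.104), Nnmt (0.119), Fzd2 (0.133), Cacnb3 (0.135) and Adamts2 (0.139). The class II genes themselves lay 0.158 to 0.75 from their own mean profile, so these 6 genes were nearer to that mean than any of the 9. They were picked by this same distance, so their nearness was fixed by the selection and is no link to class II.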

How the data were processed

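Poly-A RNA libraries (6) of mouse heart were used, in the groups and replicates the labels give. The authors deposited 1 table per library with estimated counts, TPM and effective length (another column of the table, used for an offset) for 116546 transcripts. Salmon 1.5.2, DESeq2 1.44.0 and the build GRCm38 (mm10) are given per the submitters' processing notes. The annotation release is not given in the sources used here. Whether the counting used strand is not given there either.

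Transcripts were assigned to genes with GENCODE M21 (115977 matched, and the other 569 were dropped). Estimates were added up by gene and rounded, filtered with filterByExpr (14237 genes) and scaled by TMM (factors 0.732 to 1.214). The genotype effect was tested by the quasi-likelihood method of edgeR 4.0.16, with Benjamini-Hochberg adjustment over all genes and a threshold of 0.05. Standard errors are the absolute log2 fold change over the square root of F, and log2 CPM used a prior count of 2. Ratios used SciPy 1.17.1. Alternatives used DESeq2 1.42.0 and limma 3.58.1. The edgeR fit was tested on simulated data. At the threshold it recovered 12.5% of genes changed by a log2 of 1 and 77.4% of those changed by 2, and called 9 unchanged genes. The simulation drew each gene independently and set no knockout library apart, so its rates may not hold for these data. In these data 0 genes were called, and Tnni3, a cardiomyocyte gene, was left uncalled at a log2 fold change of 3.23. A gene left uncalled at a log2 fold change near 1, or at a larger one, is therefore no evidence of no change.

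The 9 genes and the lists were chosen with earlier results of these data known. Of each pathway list up to 3 genes with the smallest p are named, with the 6 genes nearest in profile. Of the lysosomal list, Ifi30 is not analysed here. The labels do not state that each library is a separate animal, so p-values measure only the spread between these libraries, which may be technical.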

Additional observations from a re-analysis of the deposited data

How the results depend on the processing

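The count of genes called, 0 with all 6 libraries by edgeR, was 2824 with DESeq2, 889 without the filter on low counts and 0 to 6947 when each library was left out in turn, where 6947 was without Runx1_FB_KO replicate 3. The cause was not tested. All 9 class II genes kept a negative log2 fold change under every alternative run. Of 154 refits of a class II gene, 141 stayed on the same side of the threshold and 13 passed it: 9 without Runx1_FB_KO replicate 3 and 4 with DESeq2. With library size alone the median of all genes moved to -0.52, and class II values ran from -2.36 for H2-Oa to -1.21 for Cd74. With sex as a covariate 0 genes were called, and Cd74 had -0.76 and H2-Oa -1.74. With the replicate number as a block 0 genes were called (smallest edgeR adjusted p = 0.073). Deviations of same-numbered libraries correlated at -0.051, 0.113 and 0.081 for numbers 1, 2 and 3, and CTL replicate 1 correlated best with Runx1_FB_KO replicate 3, so the numbers were not taken as pairs. All 77 ratio alternatives moved by less than the spread between libraries, which is wide for the H2-O ratios. Leaving out 1 of 3 libraries cannot move a group mean by that much. For those alternatives the outcome was fixed in advance and is no sign of stability. Depth limits H2-Oa most, at 1 to 54 reads a library.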
